A study of Mus musculus with 22 samples.

Results

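Microglia, the resident macrophages of the brain, were compared between aged and young adult female mice by RNA sequencing of sorted cells. The comparison rests on 6 of the 22 libraries of the series, chosen by the sex and age in the sample labels: 3 from aged females (96 to 104 weeks, labelled 104 weeks in the titles) and 3 from young adult females (6 to 10 weeks, labelled 8 weeks). All were untreated C57BL/6J mice whose titles carry the label SPF, and the cells were sorted from whole brain as CD11b-positive, CD45-low and lineage-negative. The other libraries, from 5 middle-aged females (50 to 54 weeks) and 11 males of the 3 ages, entered the fit as further groups. Nothing in the labels ties 1 library to 1 animal, and p-values therefore measure the spread between libraries, which may be technical. Libraries are named by group and replicate number: young adult females 1, 3 and 4 and aged females 1, 2 and 3. Values for 3 libraries are given in that order.

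Microglia keep watch over brain tissue with mobile processes, sense released nucleotides through receptors such as P2ry12, and clear debris, synaptic material and dying cells into lysosomes. They depend on signals through the Csf1 and TGF-beta receptors. In ageing and degenerating tissue they are known to leave this homeostatic state and to raise genes of lipid handling, phagocytosis, antigen presentation and the interferon response.

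A value is a read count divided by 1 size factor per library, called a normalized count, and corresponds to a level that is not divided by transcript length. Of 18072 genes, the 12552 with at least 10 normalized counts in at least 3 of the 22 libraries were tested with limma on log2(normalized count + 1), with p-values adjusted over all of them by the Benjamini-Hochberg method and called below 0.05. Log2 changes (aged minus young adult) are fitted values on that scale and carry the standard error of the fit. For genes with few reads they depend on the added 1. Where a library lies at or near 0, they can exceed the change of the group means. Of the genes tested, 911 (7.26%) rose, 614 (4.89%) fell, and 12.1% changed in either direction. The median log2 change of all genes was 0.007. In 29.0% of genes tested the 3 aged and the 3 young adult libraries did not overlap. These shares are the background against which each gene group is read. In each count below, members not counted as risen or fallen did not pass the test.

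The recovered depth was 21.4, 23.7 and 19.3 M reads in the young adult and 17.7, 20.7 and 21.1 M in the aged females. The 3 young adult females lay at one end of the second principal component (12.5% of the variance over all libraries). A larger component (15.4%) is described with the males below. Aged female 1 carried transcripts of the neutrophil list. The 9 of its 12 markers that have values summed to 2276 normalized counts there, with 719.9 of S100a8, and to at most 36.8 in the other 5 libraries. Transcripts of photoreceptors and pinealocytes stood in the 3 young adult females, with sums of 437, 506 and 576 against 8.09, 19.5 and 16.8 in the aged. Choroid plexus and ependyma markers summed to 1745 in aged female 1 and 742 in aged female 2, against at most 276 in the other 4 libraries, and none of the 5 tested passed. Monocyte markers summed to 557 in aged female 1 and to at most 168 elsewhere, and 2 of the 5 tested rose. Of these markers 0 were called without aged female 1 and 1 without any other of the 6 libraries. Astrocyte markers summed to 5662, 5707 and 4678 in the young adult and 7552, 7326 and 6139.9 in the aged females and neuron markers to 94.9, 160.0 and 77.3 and 298, 280.3 and 186, with 1 of 8 tested risen in each list. The part of these transcripts in the results was not tested. In bulk libraries, fewer cells of a type and less RNA per cell cannot be told apart. Markers of border-associated macrophages summed to 3440.3, 3697 and 3155 in the young adult and 4867, 5493 and 4750.4 in the aged females, mostly Stab1, and 4 of the 7 tested rose. Members called numbered 1 without young adult female 4 and 2 without aged female 1 or 2. Of the microglia markers none of 10 was at 0, and their sum was 1943590 to 1982130 in the young adult and 1686490 to 1743910 in the aged females. Of the 14 T and NK cell markers 5 have values, and none passed the filter on low values. Their sum was at most 1.01 in each of the 6 libraries. The change moved with base composition: the median log2 change was -0.14 in the fifth of genes with the lowest GC content (100 risen, 229 fallen) and 0.17 in the fifth with the highest (296 risen, 44 fallen). With a trend of length and GC content removed from each library, 820 genes rose and 500 fell. Without aged female 1 the calls numbered 626 and 330, and without young adult female 4 they numbered 632 and 330.

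**Figure D1:**
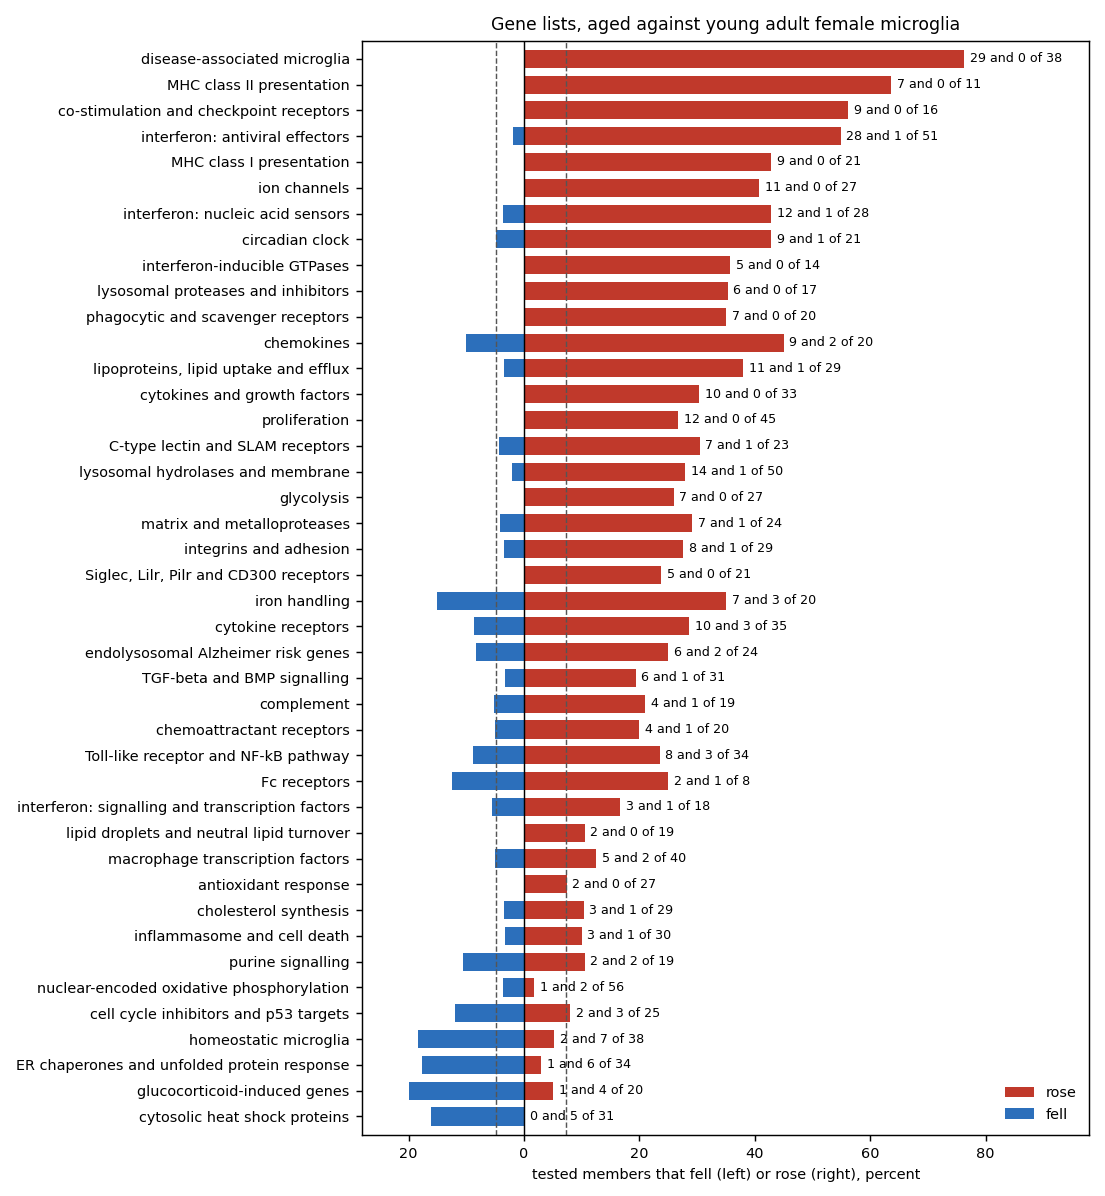
Share of the tested members of each of the 42 pathway lists that rose (right) or fell (left) in aged against young adult females, in percent, with the number called written as risen and fallen of tested. Dashed lines mark the shares over all genes tested, 7.26% risen and 4.89% fallen. The list of disease-associated genes has the longest bar, with 29 of 38 members risen.

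Several genes of secreted signals were among the changes with the smallest adjusted p. Of 24 genes listed for chemokines, 20 were tested, 9 rose and 2 fell (median log2 change 1.74). Ccl3 and Ccl4 are chemokines that draw monocytes and T cells. Normalized counts of Ccl3 ran 357, 249 and 253 in the young adult and 1109.5, 1173 and 2047 in the aged females (log2 change 2.29 ± 0.28, adjusted p = 4.81e-06). Counts of Ccl4 were 562, 328 and 435 in the young adult libraries and 1860.5, 1846 and 3021 in the aged (log2 change 2.34 ± 0.25, adjusted p = 1.12e-06). All aged libraries lay above all young adult ones for both. Cxcl16, a membrane-bound chemokine that also binds oxidised lipids, rose from 1955, 1875 and 1994 to 4433, 3720.3 and 4221 (log2 change 1.08 ± 0.14, adjusted p = 1.43e-05). Cxcl10 is an interferon-induced ligand of Cxcr3, and one of its young adult libraries had no read. Its counts were 125, 8.10 and 0 in the young adult and 810.2, 829 and 367 in the aged females (log2 change 5.91 ± 1.13, adjusted p = 0.00119). Cxcl14 had 2.23, 2.03 and 0 in the young adult and 93.0, 59.7 and 94.2 in the aged females (log2 change 5.25 ± 0.81, adjusted p = 1.37e-04). The 2 chemokine genes that fell, named after their values were seen, were Ccl9 (log2 change -0.57 ± 0.15, adjusted p = 0.0121, 0.0707 without young adult female 4 and 0.0661 without aged female 3) and Cklf (log2 change -0.48 ± 0.16, adjusted p = 0.0455, 0.0562 to 0.195 without any 1 of the 6 libraries). The list counted 5 without young adult female 4.

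Among 33 tested of 42 genes for cytokines and growth factors, 10 rose and none fell, and their median log2 change was 0.79. Tnfsf8, the ligand of CD30 on activated lymphocytes (chromosome 4, 63831308 to 63861347 in mm10), had the smallest adjusted p of the list. Tnfsf8 had 11.2, 7.09 and 9.97 normalized counts in the young adult and 185, 271 and 253 in the aged females (log2 change 4.51 ± 0.31, adjusted p = 1.71e-09). Its lowest aged library lay far above its highest young adult one. Tnfsf13b, the B cell survival factor BAFF, rose from 452, 413 and 395 to 1598, 1811 and 1164 (log2 change 1.83 ± 0.19, adjusted p = 8.17e-07). Csf1, the growth factor of the macrophage lineage, rose from 446, 475 and 533 to 1975, 1645 and 2031 (log2 change 1.95 ± 0.22, adjusted p = 1.46e-06). Neither gene had an aged library in the young adult range. Spp1 encodes osteopontin. Normalized counts of Spp1 ran 82.6, 98.2 and 237 in the young adult and 2621, 2690.1 and 5023 in the aged females (log2 change 4.71 ± 0.80, adjusted p = 3.67e-04). Tgfb1, which maintains the microglial state, rose from 3073, 4077 and 4282 to 6473, 6502 and 6535 (log2 change 0.79 ± 0.12, adjusted p = 1.41e-04). Il18bp, a soluble inhibitor of interleukin 18, rose from 31.3, 88.1 and 37.4 to 216, 237 and 238 (log2 change 2.27 ± 0.43, adjusted p = 0.00124). The classical inflammatory cytokines of the list differed among themselves. Il1a and Il6, named after their values were seen, did not pass, and their groups overlapped (log2 changes -0.04 ± 0.15 and -0.08 ± 0.30). Il1b passed the test and Tnf did not, although the groups overlapped for neither. Il1b had 164, 119 and 58.6 in the young adult and 355, 306 and 265 in the aged females (log2 change 1.54 ± 0.36, adjusted p = 0.00673, 0.0587 without young adult female 4). Tnf had 33.5, 21.3 and 26.2 in the young adult and 178, 155 and 141 in the aged females (log2 change 2.52 ± 0.95, adjusted p = 0.0862).

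Co-stimulatory and checkpoint proteins pass signals between lymphocytes and antigen-presenting cells. For co-stimulation and checkpoint receptors, 16 of 20 listed genes could be tested, 9 rose and none fell (median log2 change 0.85). Lag3, which binds MHC class II (chromosome 6, 124904361 to 124911705 in mm10), and Pdcd1, which encodes PD-1, are inhibitory receptors of T cells. Counts of Lag3 were 566, 689 and 779 in the young adult libraries and 4576, 2761 and 2943 in the aged (log2 change 2.31 ± 0.18, adjusted p = 1.04e-08). Pdcd1 had 186, 165 and 98.5 normalized counts in the young adult and 1557, 1164 and 1406 in the aged females (log2 change 3.23 ± 0.28, adjusted p = 3.99e-08). No aged library of either gene reached down to the young adult range. Cd40 is a receptor for the T cell ligand CD40L, and Cd72 an inhibitory receptor of B cells. Cd40 rose from 7.82, 1.01 and 0 to 111, 207 and 105 (log2 change 5.69 ± 0.88, adjusted p = 1.38e-04). Cd72 rose from 245, 237 and 171 to 891, 695 and 766 (log2 change 1.86 ± 0.36, adjusted p = 0.00124). Icosl, a co-stimulatory ligand, and Cd83 rose by less (log2 changes 0.97 ± 0.12 and 0.92 ± 0.14).

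The list of C-type lectin and SLAM receptors held 29 genes, of which 23 passed the filter on low values, 7 rose and 1 fell, with a median log2 change of 0.84. Ly9 belongs to the SLAM family of receptors that bind their own kind on neighbouring cells (chromosome 1, 171588624 to 171607410 in mm10). Normalized counts of Ly9 ran 581, 662 and 826 in the young adult and 2793, 3337 and 2790.1 in the aged females (log2 change 2.12 ± 0.16, adjusted p = 3.29e-09). Slamf7 had no read in the young adult females and 51.2, 114 and 79.6 normalized counts in the aged. This was at least 72.4-fold higher when 3 reads over the young adult group are taken as the floor (adjusted p = 2.98e-04). Slamf8, Slamf9 and Cd48, of the same family, rose by 1.10 ± 0.18, 0.84 ± 0.14 and 0.46 ± 0.10 on the log2 scale. Clec7a, the receptor for fungal glucans, rose from 908, 843 and 555 to 3335, 2826 and 4134 (log2 change 2.17 ± 0.25, adjusted p = 3.18e-06). Clec4a2 fell, and is named after its value was seen (-0.51 ± 0.12).

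Of 29 genes listed for Siglec, Lilr, Pilr and CD300 receptors, 21 were tested, 5 rose and none fell (median log2 change 0.54). Cd22, a lectin that binds sialic acid and restrains uptake of debris by microglia (chromosome 7, 30865402 to 30880342 in mm10), had the smallest adjusted p among them. Counts of Cd22 were 283, 396 and 384 in the young adult libraries and 2413, 2169 and 1708 in the aged (log2 change 2.56 ± 0.19, adjusted p = 3.29e-09). Its young adult and aged libraries did not overlap. Lilrb4a and Pirb are inhibitory receptors of the immunoglobulin family. Lilrb4a rose from 50.2, 62.8 and 68.5 to 592, 456 and 897 (log2 change 3.35 ± 0.49, adjusted p = 6.34e-05). Pirb rose from 251, 232 and 221 to 617, 625 and 425 (log2 change 1.22 ± 0.23, adjusted p = 9.59e-04). Cd300lf, which binds lipids, rose from 26.8, 8.10 and 17.4 to 175, 118 and 92.0 (log2 change 2.90 ± 0.71, adjusted p = 0.00864). Genes of such families have near copies, and reads could have been split or dropped among them, since how reads were counted is unknown here.

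**Figure D2:**
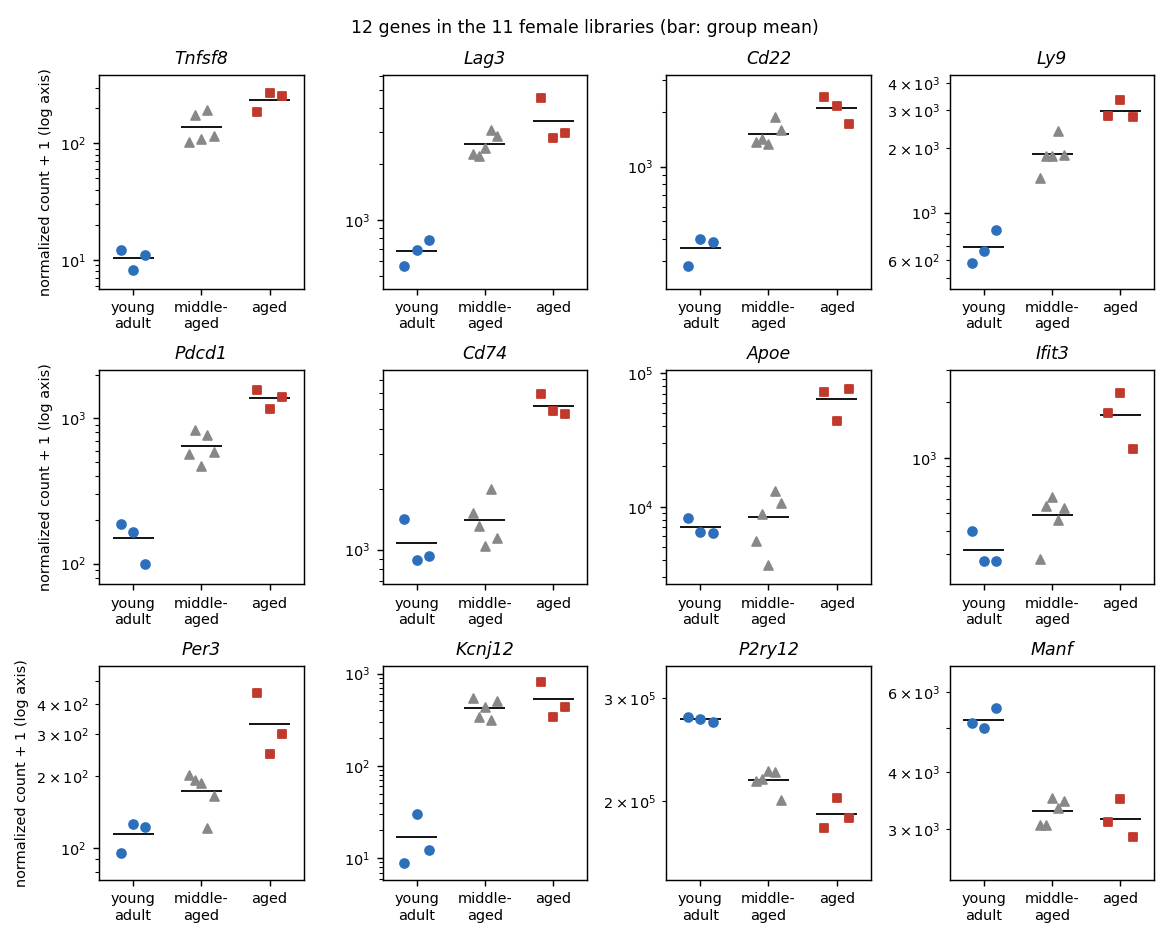
Normalized counts (log axis, with 1 added) of 12 genes in each female library: 3 young adult (circles), 5 middle-aged (triangles) and 3 aged (squares), with a bar at the mean of each group. Tnfsf8, Lag3, Cd22, Ly9 and Cd74 lie higher in every aged than in every young adult library, and P2ry12 and Manf lie lower.

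Among 20 tested of 31 genes for phagocytic and scavenger receptors, 7 rose and none fell, and their median log2 change was 0.22. Axl recognises dying cells through bridging proteins. Axl had 941, 487 and 496 normalized counts in the young adult and 4902, 4063 and 5551 in the aged females (log2 change 2.97 ± 0.40, adjusted p = 2.22e-05). Mfge8, a bridging protein that tags dying cells, rose from 977, 919 and 955 to 1502, 1433 and 1777 (log2 change 0.72 ± 0.12, adjusted p = 3.16e-04). Itgb5, an integrin that binds such bridges, rose from 67701, 71076 and 66493 to 77469, 86801 and 83826 (log2 change 0.27 ± 0.06, adjusted p = 0.0066). Cd36 and Msr1, scavenger receptors for modified lipoproteins, were low in some young adult libraries. Cd36 had 69.2, 0 and 1.25 in the young adult and 120.0, 146 and 117 in the aged females (log2 change 4.56 ± 1.20, adjusted p = 0.0138, 0.094 without young adult female 3 and 0.0754 without young adult female 4). Msr1 had 10.0, 46.6 and 1.25 in the young adult and 123, 154 and 59.4 in the aged females (log2 change 3.31 ± 0.86, adjusted p = 0.0128, 0.11 without young adult female 4 and 0.0524 without aged female 2). Trem2 and its partner Tyrobp did not pass, with log2 changes of 0.16 ± 0.10 and 0.14 ± 0.13. The count of the list was 3 without young adult female 4 and 4 without aged female 2.

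For cytokine receptors, 35 of 35 listed genes could be tested, 10 rose and 3 fell (median log2 change 0.06). Il2rg is the chain shared by receptors of several interleukins. Normalized counts of Il2rg ran 315, 356 and 308 in the young adult and 1421, 1151 and 1262 in the aged females (log2 change 1.96 ± 0.21, adjusted p = 1.12e-06). Among receptors of colony-stimulating factors, Csf3r rose by 0.66 ± 0.11, Csf2rb by 0.54 ± 0.12 and Csf2rb2 by 0.82 ± 0.14 on the log2 scale. Csf1r, on which microglial survival depends, did not pass (-0.10 ± 0.10). Il3ra, the chain that pairs with Csf2rb2 to bind interleukin 3, rose from 12.3, 19.2 and 6.23 to 72.8, 79.3 and 51.6 (log2 change 2.44 ± 0.48, adjusted p = 0.00161). Il1r2, a decoy for interleukin 1, had no read in the young adult females and 33.7, 9.19 and 44.9 normalized counts in the aged (adjusted p = 0.00817). The 3 that fell were Ifngr1 (log2 change -0.27 ± 0.09, adjusted p = 0.0447, 0.0639 to 0.128 without any 1 of the 6 libraries) and, named after their values were seen, Insr (log2 change -0.55 ± 0.14, adjusted p = 0.0122, 0.0612 without young adult female 1 and 0.0729 without aged female 1) and Il13ra1 (log2 change -0.39 ± 0.12, adjusted p = 0.0363, 0.0615 to 0.131 without any 1 library but young adult female 1). None of the 3 was called without aged female 1. Its called members numbered 7 without aged female 1 and 8 without young adult female 1 or 4.

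The list of chemoattractant receptors held 24 genes, of which 20 passed the filter on low values, 4 rose and 1 fell, with a median log2 change of 0.10. Members moved in both directions. S1pr1, a receptor for sphingosine 1-phosphate, rose from 3119, 3764 and 4260.0 to 7992, 5154 and 6420.2 (log2 change 0.80 ± 0.16, adjusted p = 0.00173). Ccr1, a receptor for Ccl3, fell. Counts of Ccr1 were 902, 955 and 1089 in the young adult libraries and 271, 193 and 305 in the aged (log2 change -1.96 ± 0.46, adjusted p = 0.00696). The number of its members called was 3 without young adult female 4 or aged female 1. Of 34 genes listed for Toll-like receptor and NF-kB pathway, 34 were tested, 8 rose and 3 fell (median log2 change 0.19). Tlr2, a receptor for bacterial lipopeptides, rose from 9795, 8518 and 8909 to 16643, 14938 and 16985 (log2 change 0.84 ± 0.15, adjusted p = 7.41e-04). Tnip1, which restrains NF-kB, rose from 336, 363 and 371 to 732, 578 and 578 (log2 change 0.81 ± 0.16, adjusted p = 0.00128). The members that fell were Nfkb1 (-0.39 ± 0.08), Ly96, the co-receptor of Tlr4 (-0.64 ± 0.14), and Irak4, named after its value was seen (log2 change -0.57 ± 0.16, adjusted p = 0.0167, 0.0905 without young adult female 1 and 0.103 without aged female 1). Members called numbered 7 without aged female 1.

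In antigen presentation, genes of both classes were among those that rose, and none of those tested fell. Among 11 tested of 12 genes for MHC class II presentation, 7 rose and none fell, and their median log2 change was 0.48. Cd74 is the invariant chain that guides class II molecules to endosomes. Cd74 had 1418, 888 and 931 normalized counts in the young adult and 5921, 4889.6 and 4717 in the aged females (log2 change 2.29 ± 0.21, adjusted p = 1.28e-07). H2-Ab1, H2-Aa and H2-Eb1 are chains of class II molecules. H2-Ab1 had 490.2, 337 and 186 in the young adult and 2158, 1473 and 1115 in the aged females (log2 change 2.28 ± 0.31, adjusted p = 2.79e-05). H2-Aa had 166, 0 and 42.4 in the young adult and 971, 709 and 523 in the aged females (log2 change 5.20 ± 1.11, adjusted p = 0.00319). H2-Eb1 had 162, 8.10 and 34.9 in the young adult and 706, 366 and 288 in the aged females (log2 change 3.49 ± 0.79, adjusted p = 0.00488). Aged female 1, in which neutrophil transcripts stood, was the highest of its group for all 4. The list counted 4 without young adult female 1. For MHC class I presentation, 21 of 26 listed genes could be tested, 9 rose and none fell (median log2 change 0.50). H2-K1 and H2-D1 are the heavy chains that show peptides to CD8 T cells. H2-K1 rose from 11624, 9789.8 and 11920.1 to 30253, 24689 and 19644 (log2 change 1.15 ± 0.17, adjusted p = 8.26e-05). H2-D1 rose from 6931, 5779 and 6639 to 20808, 17802 and 12958 (log2 change 1.39 ± 0.19, adjusted p = 2.79e-05). Tap1, a subunit of the peptide transporter, rose from 1443, 1402 and 1317 to 3036, 2600.5 and 2464 (log2 change 0.96 ± 0.12, adjusted p = 7.85e-06). Aged female 1 was again the highest and aged female 3 the lowest of the aged libraries for these 3. The count of the list was 4 without aged female 1 and 5 without aged female 2.

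Of the interferon lists, the sensors and the effectors held most of the genes called. Interferons act through transcription factors that bind the interferon-stimulated response element in the promoters of their targets. The list of interferon-induced nucleic acid sensors held 34 genes, of which 28 passed the filter on low values, 12 rose and 1 fell, with a median log2 change of 1.17. Dhx58 and Ifih1 are sensors of viral RNA. Normalized counts of Dhx58 ran 376, 409 and 277 in the young adult and 1184, 1209 and 906 in the aged females (log2 change 1.64 ± 0.20, adjusted p = 4.58e-06). Counts of Ifih1 were 402, 504 and 314 in the young adult libraries and 1069, 1013 and 600.0 in the aged (log2 change 1.12 ± 0.20, adjusted p = 7.85e-04). Zbp1, a sensor of left-handed nucleic acid, rose from 59.2, 25.3 and 33.7 to 384, 395 and 213 (log2 change 3.07 ± 0.49, adjusted p = 1.90e-04). The groups overlapped for none of the 3. Ifi204, a sensor of DNA, rose from 240.1, 221 and 47.4 to 1425, 1269 and 673 (log2 change 2.96 ± 0.57, adjusted p = 0.00124). Tmem173, which encodes STING, was the member that fell. Tmem173 had 27474, 27689.6 and 28664 normalized counts in the young adult and 21598, 22294 and 21970.1 in the aged females (log2 change -0.35 ± 0.09, adjusted p = 0.00909). Its called members numbered 7 without young adult female 4 and 8 without aged female 1.

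Of 19 genes listed for interferon signalling, 18 were tested, 3 rose and 1 fell (median log2 change 0.23). Irf7, which amplifies the response, rose from 228, 105 and 163 to 755, 795 and 323 (log2 change 1.87 ± 0.40, adjusted p = 0.00289). Usp18, which dampens the receptor, rose from 532, 291 and 227 to 1607, 1564 and 907 (log2 change 2.00 ± 0.42, adjusted p = 0.00268). Irf5 was the member that fell (-0.32 ± 0.07). Among 51 tested of 55 genes for interferon-induced antiviral effectors, 28 rose and 1 fell, and their median log2 change was 0.89. Ifit3 is a partner of the RNA-binding protein Ifit1. Normalized counts of Ifit3 ran 396, 272 and 274 in the young adult and 1762, 2251 and 1112 in the aged females (log2 change 2.40 ± 0.42, adjusted p = 4.60e-04). Its aged libraries spread more widely than its young adult ones, without overlap. Rtp4 had 927, 727 and 658 in the young adult and 3330.0, 2598 and 1610.4 in the aged females (log2 change 1.66 ± 0.29, adjusted p = 4.63e-04). Lgals3bp, a secreted glycoprotein, had 7997, 6506 and 7044 in the young adult and 24817, 18106 and 14865 in the aged females (log2 change 1.40 ± 0.23, adjusted p = 2.86e-04). Sp100, of nuclear bodies, had 351, 353 and 339 in the young adult and 1453, 1360.0 and 921 in the aged females (log2 change 1.81 ± 0.29, adjusted p = 1.98e-04). Aged female 3 was the lowest of its group for Ifih1, Zbp1, Ifi204, Irf7, Usp18, Ifit3, Rtp4, Lgals3bp and Sp100. For interferon-inducible GTPases, 14 of 19 listed genes could be tested, 5 rose and none fell (median log2 change 1.03). Gbp2, of the guanylate-binding family that attacks the vacuoles of microbes, had 271, 375 and 201 in the young adult and 1216, 889 and 489 in the aged females (log2 change 1.56 ± 0.44, adjusted p = 0.0203, 0.0528 to 0.109 without any 1 library but young adult female 3 and aged female 3). The number of its members called was between 0 and 3 without aged female 1 or 2 or young adult female 1, 3 or 4.

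Promoters of these genes were searched for that element. Its letters were not used to choose the lists. The interferon lists hold known interferon targets, however, so a high share in them says nothing of age. RefSeq promoters (GRCm38.p6, the build of the deposited values) matched 77.5% of the genes tested, and the 250 bases before the start were searched on both strands for the response element core GAAANNGAAA, where N is any base. It was found for 3.37% of the 9733 matched genes, for 9 of 20 sensors, 14 of 40 effectors, 8 of 9 GTPases, 2 of 13 chemokines and 3 of 16 signalling genes. The MHC class I list gave 2 of 15 and the class II list 1 of 8. Of matched genes that rose, it was found for 9 of 22 effectors, 4 of 9 sensors, 2 of 3 GTPases, 2 of 6 chemokines and 0 of 1 signalling gene. Stretches of 60 bases around it are shown for genes of the interferon and chemokine lists described here that rose and hold it. B2m, Ctss and Lamp1, of other lists, also rose and hold it, and are not shown. The bases run 5′ to 3′ on the strand of the gene, with the core in capitals as it reads on that strand.
Oas3 (chr5:120777700-120777759, minus strand): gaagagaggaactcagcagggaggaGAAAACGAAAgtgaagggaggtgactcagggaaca
Ifit3 (chr19:34583348-34583407, plus strand): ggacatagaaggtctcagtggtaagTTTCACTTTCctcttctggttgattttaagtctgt
Phf11b (chr14:59341346-59341405, minus strand): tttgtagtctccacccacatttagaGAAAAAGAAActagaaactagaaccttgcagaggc
Gbp2 (chr3:142620579-142620638, plus strand): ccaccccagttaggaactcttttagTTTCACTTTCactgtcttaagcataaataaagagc
Gbp7 (chr3:142530258-142530317, plus strand): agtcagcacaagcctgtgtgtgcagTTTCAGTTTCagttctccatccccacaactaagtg
Cxcl10 (chr5:92349068-92349127, minus strand): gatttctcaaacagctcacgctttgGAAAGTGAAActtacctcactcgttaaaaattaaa
Cxcl14 (chr13:56296689-56296748, minus strand): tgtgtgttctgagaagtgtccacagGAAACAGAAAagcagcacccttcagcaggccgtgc
In Ifit3, Gbp2 and Gbp7 the core lies on the opposite strand and so reads TTTCNNTTTC on the strand shown. A match describes the letters and shows no binding. Oas3 makes the messenger that switches on an RNA-cutting enzyme, and 2 of its young adult libraries had no read. It had 7.82, 0 and 0 in the young adult and 128, 159 and 46.0 in the aged females (log2 change 5.58 ± 1.31, adjusted p = 0.0064). Phf11b had 399, 333 and 260.5 in the young adult and 759, 790.2 and 644 in the aged females (log2 change 1.16 ± 0.20, adjusted p = 4.52e-04). Gbp7 had 1246, 1594 and 1264 in the young adult and 1951, 2105 and 1723 in the aged females (log2 change 0.50 ± 0.16, adjusted p = 0.0402, 0.102 to 0.138 without any 1 library but young adult female 3 and aged female 3).

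Genes of lipid handling were listed by carriage and uptake, synthesis, and storage. The list of lipoproteins, lipid uptake and efflux held 35 genes, of which 29 passed the filter on low values, 11 rose and 1 fell, with a median log2 change of 0.65. Apoe is the main lipid carrier of the brain. Counts of Apoe were 8186, 6460.4 and 6329 in the young adult libraries and 72412, 43522 and 75297 in the aged (log2 change 3.16 ± 0.34, adjusted p = 1.12e-06). Nceh1, which frees cholesterol from its esters, had a smaller change and no overlap. Nceh1 had 499, 416 and 373 normalized counts in the young adult and 1887, 1274 and 1480.3 in the aged females (log2 change 1.84 ± 0.19, adjusted p = 4.23e-07). Ch25h makes the signalling sterol 25-hydroxycholesterol, Fabp5 carries fatty acids, and Lpl frees them from lipoproteins. Ch25h had 21.2, 33.4 and 0 in the young adult and 284, 240.1 and 358 in the aged females (log2 change 4.99 ± 0.93, adjusted p = 9.28e-04). Fabp5 had 8.93, 13.2 and 3.74 in the young adult and 105, 56.3 and 136 in the aged females (log2 change 3.43 ± 0.63, adjusted p = 8.08e-04). Lpl had 1701, 1379 and 1109 in the young adult and 3393, 3019 and 6171 in the aged females (log2 change 1.53 ± 0.33, adjusted p = 0.00314). Mylip, which marks the lipoprotein receptor for breakdown and is named after its value was seen, fell (log2 change -0.37 ± 0.11, adjusted p = 0.0274, 0.0541 to 0.164 without any 1 library but aged female 2 and 3). Members called numbered 7 without young adult female 4. Of 29 genes listed for cholesterol synthesis, 29 were tested, 3 rose and 1 fell (median log2 change 0.27). Among them was Sqle, squalene epoxidase, which rose from 38.0, 13.2 and 27.4 to 136, 133 and 83.0 (log2 change 2.21 ± 0.47, adjusted p = 0.0029). The list counted 2 without young adult female 4 or aged female 1 or 3. Among 19 tested of 22 genes for lipid droplets and neutral lipid turnover, 2 rose and none fell, and their median log2 change was 0.17. The count of the list was 0 or 1 without aged female 1 or 2 or young adult female 1, 3 or 4. The shares called of these last 2 lists, synthesis and storage, are near the background.

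For disease-associated microglia, 38 of 38 listed genes could be tested, 29 rose and none fell (median log2 change 1.74). The list holds genes chosen in earlier studies of ageing and disease, and its direction here was known from earlier results of these data. Lyz2, lysozyme, rose from 3639, 3532 and 2943 to 16434, 11525 and 12606 (log2 change 1.99 ± 0.19, adjusted p = 1.68e-07). Itgax, an integrin chain also known as CD11c, rose from 137, 319 and 93.5 to 1173, 724 and 1519.5 (log2 change 2.76 ± 0.38, adjusted p = 3.50e-05). Lgals3, galectin 3, rose from 84.9, 116 and 56.1 to 841, 779.9 and 1306 (log2 change 3.51 ± 0.54, adjusted p = 1.22e-04). Some members were near silent in the young adult libraries or varied widely among them. Gpnmb, a glycoprotein of lysosomes, had 1 read over the 3 young adult libraries and 140.2, 115 and 172 normalized counts in the aged (adjusted p = 4.58e-04). Cybb, the catalytic subunit of the phagocyte oxidase, had 291, 125 and 16.2 in the young adult and 907, 1240.5 and 1614 in the aged females (log2 change 3.83 ± 0.68, adjusted p = 6.08e-04).

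Most lysosomal genes tested did not pass, and those that did rose with 1 exception. The list of lysosomal proteases and inhibitors held 22 genes, of which 17 passed the filter on low values, 6 rose and none fell, with a median log2 change of 0.23. Cst7 is an inhibitor of cathepsins. Normalized counts of Cst7 ran 358, 243 and 251 in the young adult and 1941, 1408 and 2654 in the aged females (log2 change 2.79 ± 0.25, adjusted p = 4.82e-08). Ctsb and Ctsz, cathepsins, moved by far less. Ctsb had 122612, 122554 and 118383 in the young adult and 197392, 173879 and 188914 in the aged females (log2 change 0.62 ± 0.09, adjusted p = 6.71e-05). Ctsz had 62569, 58115 and 61029 in the young adult and 87946, 80143 and 84702 in the aged females (log2 change 0.48 ± 0.08, adjusted p = 3.50e-04). Ctse, a protease of endosomes, had 8.93, 1.01 and 0 in the young adult and 113, 109 and 57.2 in the aged females (log2 change 5.05 ± 0.82, adjusted p = 2.43e-04). Of 53 genes listed for lysosomal hydrolases and membrane, 50 were tested, 14 rose and 1 fell (median log2 change 0.09). Psap is the precursor of the saposins that help break down sphingolipids, and Lamp1 and Cd63 are proteins of the lysosomal membrane. Psap had 68283, 66349 and 58370.3 in the young adult and 101823, 101117 and 113411 in the aged females (log2 change 0.71 ± 0.12, adjusted p = 3.08e-04). Lamp1 had 44142, 45180.3 and 40302 in the young adult and 63896, 60850.0 and 59253 in the aged females (log2 change 0.51 ± 0.08, adjusted p = 1.38e-04). Cd63 had 5104, 4415 and 5125 in the young adult and 9534, 8201 and 8368 in the aged females (log2 change 0.83 ± 0.13, adjusted p = 1.45e-04). The groups overlapped for none of these 3. Gaa and Man2b1, enzymes that digest glycogen and mannose chains, rose by 0.50 ± 0.10 and 0.43 ± 0.09 on the log2 scale. Arsb, a sulfatase, was the member that fell. Counts of Arsb were 14773, 16229 and 14992 in the young adult libraries and 10039.8, 11304 and 10016 in the aged (log2 change -0.55 ± 0.11, adjusted p = 0.00234).

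Among 29 tested of 37 genes for integrins and adhesion, 8 rose and 1 fell, and their median log2 change was 0.27. Vcam1 is best known as the endothelial ligand of leukocyte integrins. Vcam1 had 562, 214 and 309 normalized counts in the young adult and 3643, 2557 and 2468 in the aged females (log2 change 3.09 ± 0.32, adjusted p = 5.36e-07). Itgb2 and Itga5, integrin chains, rose by 0.50 ± 0.09 and 0.99 ± 0.17 on the log2 scale, and Jam2 fell (-0.48 ± 0.11). For complement, 19 of 28 listed genes could be tested, 4 rose and 1 fell (median log2 change 0.24). C4b had 96.0, 52.7 and 38.6 in the young adult and 527, 518 and 553 in the aged females (log2 change 3.17 ± 0.55, adjusted p = 4.46e-04). C1qa, a chain of the starter of the pathway, did not pass (0.16 ± 0.09). Its called members numbered 2 or 3 without aged female 1 or 3 or young adult female 3 or 4. The list of matrix and metalloproteases held 37 genes, of which 24 passed the filter on low values, 7 rose and 1 fell, with a median log2 change of 0.77. Timp2, an inhibitor of metalloproteases, rose by 0.50 ± 0.08, and Tgm2, which crosslinks proteins, by 0.88 ± 0.15. Mmp12, macrophage elastase, had 342, 937 and 1426 normalized counts in the aged and at most 65.8 in the young adult females (log2 change 4.66 ± 1.23, adjusted p = 0.0138, 0.0668 without young adult female 4 and 0.0562 without aged female 3). The number of its members called was 4 without young adult female 4 and 5 without aged female 1 or 3.

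Among ion channels none of those tested fell. Of 30 genes listed for ion channels, 27 were tested, 11 rose and none fell (median log2 change 0.47). Kcnj12, an inward rectifier of potassium, was low in each young adult library. Normalized counts of Kcnj12 ran 7.82, 29.4 and 11.2 in the young adult and 812, 335 and 431 in the aged females (log2 change 5.05 ± 0.63, adjusted p = 7.55e-06). Trpm2, a calcium channel opened by oxidative stress, had a smaller change with less spread. Counts of Trpm2 were 770.5, 726 and 803 in the young adult libraries and 1669, 1799.9 and 2431 in the aged (log2 change 1.34 ± 0.16, adjusted p = 4.58e-06). Trpv4 is a calcium channel that senses stretch and warmth, Kcnj10 a potassium channel, and Hvcn1 the proton channel of phagocytes. Trpv4 had 116, 43.5 and 224 in the young adult and 371, 496 and 664 in the aged females (log2 change 2.24 ± 0.41, adjusted p = 8.78e-04). Kcnj10 had 53.6, 45.6 and 22.4 in the young adult and 171, 153 and 117 in the aged females (log2 change 1.90 ± 0.40, adjusted p = 0.00293). Hvcn1 had 4611, 4358 and 4432 in the young adult and 6207, 6124 and 6174 in the aged females (log2 change 0.47 ± 0.09, adjusted p = 0.00199). Lrrc8d, of volume-regulated channels, rose by 0.59 ± 0.11 on the log2 scale.

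Among 20 tested of 25 genes for iron handling, 7 rose and 3 fell, and their median log2 change was 0.37. Cp, ceruloplasmin, oxidises iron so that transferrin, Trf, can carry it. Cp rose from 36.8, 24.3 and 9.97 to 411, 189.5 and 284 (log2 change 3.69 ± 0.64, adjusted p = 4.46e-04). Trf rose from 64482, 72577 and 68684 to 90034, 94629.5 and 91304 (log2 change 0.43 ± 0.08, adjusted p = 0.00122). Slc11a1, the metal exporter of phagosomes, rose from 10529, 8084 and 9057 to 12115, 13365 and 12664 (log2 change 0.47 ± 0.09, adjusted p = 0.00177). Slc40a1 and Ncoa4, which act in iron release, fell. Slc40a1, ferroportin, the exporter of iron from the cell, fell from 12454, 13158 and 13522 to 8728, 9710.4 and 10272 (log2 change -0.45 ± 0.09, adjusted p = 0.0022). Ncoa4 delivers ferritin to lysosomes (log2 change -0.64 ± 0.18, adjusted p = 0.0218, 0.112 without young adult female 4 and 0.104 without aged female 2). Ireb2, a regulator of iron genes, fell as well and is named after its value was seen (log2 change -0.63 ± 0.18, adjusted p = 0.025, 0.0783 to 0.154 without any 1 library but young adult female 1 and 3 and aged female 3). Members called numbered 5 or 6 without aged female 1 or 2 or young adult female 3 or 4.

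The circadian clock runs as a loop in which Arntl and Clock drive Per, Cry and Nr1d genes, whose products in turn hold Arntl and Clock down. For circadian clock, 21 of 23 listed genes could be tested, 9 rose and 1 fell (median log2 change 0.98). Arntl, named after its value was seen, was the member that fell (log2 change -1.60 ± 0.38, adjusted p = 0.00781, 0.0696 without aged female 1). Per2 and Per3 are repressors of the loop. Per2 had 2.23, 44.6 and 21.2 normalized counts in the young adult and 283, 269 and 207 in the aged females (log2 change 4.09 ± 0.69, adjusted p = 3.41e-04). Normalized counts of Per3 ran 94.9, 126 and 122 in the young adult and 448, 247 and 299 in the aged females (log2 change 1.49 ± 0.24, adjusted p = 2.62e-04). The output factors Tef, Dbp and Hlf rose, and the groups overlapped for none of them. Tef had 1229, 1199 and 1615 in the young adult and 3501, 2351 and 2862 in the aged females (log2 change 1.10 ± 0.15, adjusted p = 2.42e-05). Dbp had 125, 118 and 191 in the young adult and 384, 372 and 367 in the aged females (log2 change 1.40 ± 0.29, adjusted p = 0.00228). Hlf had 79.3, 200.5 and 237 in the young adult and 435, 439 and 597 in the aged females (log2 change 1.63 ± 0.34, adjusted p = 0.00232). Nr1d2, which represses Arntl, rose by 0.98 ± 0.19 on the log2 scale. The hour at which the mice were killed is not given in the labels used here, and its part in these values was not tested.

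**Figure D3:**
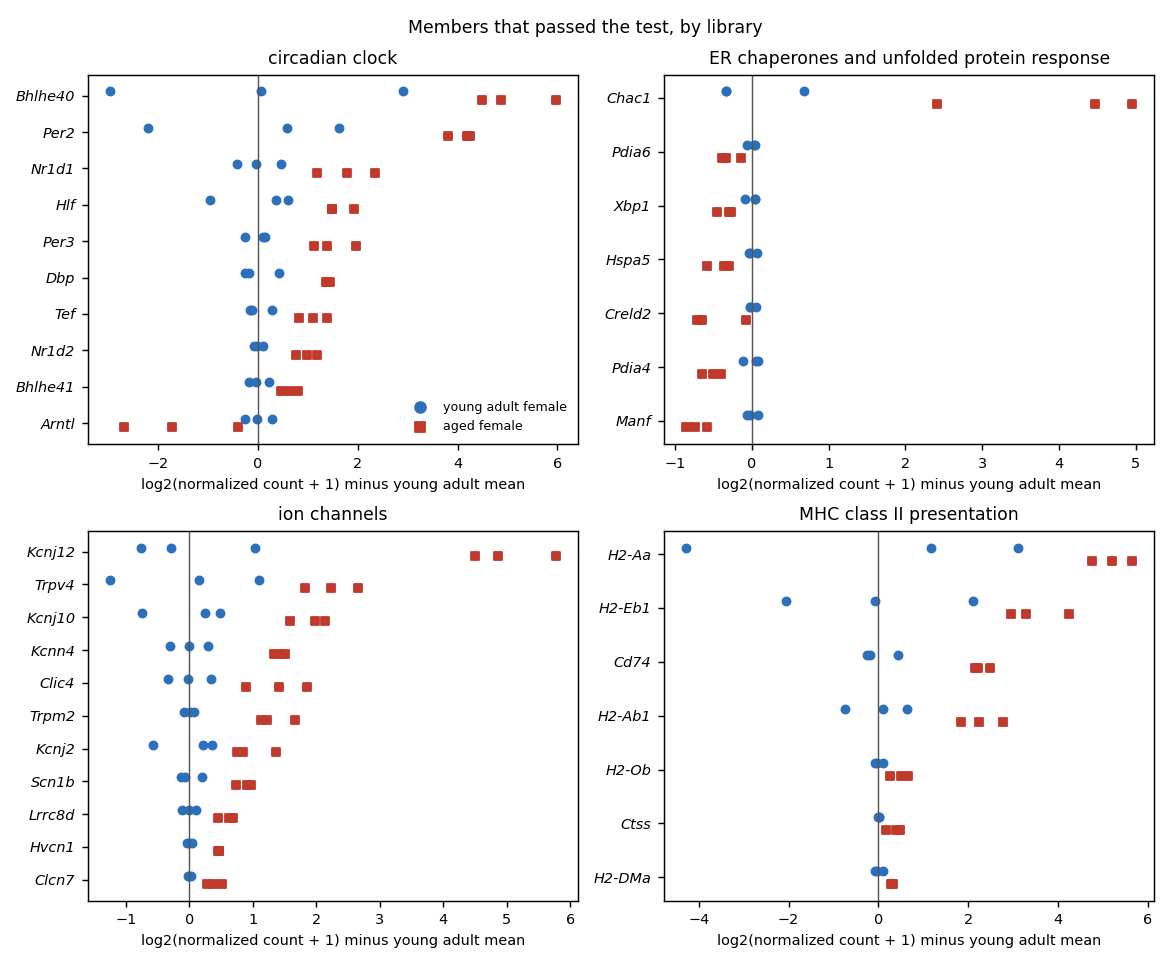
Log2(normalized count + 1) of members that passed the test, minus the mean of the 3 young adult females, in each of the 3 young adult (circles) and 3 aged female libraries (squares), for the clock, endoplasmic reticulum chaperones, ion channels and MHC class II presentation. In the clock Arntl alone lies below 0 in the aged libraries, and in the chaperone list Chac1 alone lies above.

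In 2 lists of chaperones more members fell than rose. The list of endoplasmic reticulum chaperones and the unfolded protein response held 35 genes, of which 34 passed the filter on low values, 1 rose and 6 fell, with a median log2 change of -0.14. Manf, a secreted protein of this compartment that protects neurons, had the smallest adjusted p. Counts of Manf were 5113, 4998 and 5523 in the young adult libraries and 3112, 3484 and 2879.8 in the aged (log2 change -0.73 ± 0.12, adjusted p = 2.27e-04). Pdia4, which forms disulfide bonds, had 11912, 12144 and 10593 in the young adult and 7322, 8706 and 8086 in the aged females (log2 change -0.52 ± 0.13, adjusted p = 0.00754). Hspa5, the main chaperone of the compartment, had 53246, 56551 and 52651 in the young adult and 36029.8, 41968 and 44144 in the aged females (log2 change -0.42 ± 0.14, adjusted p = 0.0474, 0.051 to 0.194 without any 1 of the 6 libraries). The groups overlapped for none of these 3, but the call of Hspa5 needed all 6 libraries. Creld2 fell (log2 change -0.48 ± 0.16, adjusted p = 0.0437, 0.0824 to 0.203 without any 1 library but aged female 2). Pdia6, which forms disulfide bonds, fell (log2 change -0.29 ± 0.09, adjusted p = 0.0384, 0.0568 to 0.159 without any 1 library but aged female 2). Xbp1, a transcription factor of the response, fell (log2 change -0.34 ± 0.10, adjusted p = 0.0256, 0.052 to 0.109 without any 1 library but young adult female 4 and aged female 3). Chac1, an enzyme that breaks down glutathione, had 1 read in the young adult group and rose (adjusted p = 0.0419, 0.0626 to 0.137 without any 1 library but aged female 2). The list counted 2 or 3 without aged female 1 or 3 or young adult female 1, 3 or 4. Of 32 genes listed for cytosolic heat shock proteins, 31 were tested, none rose and 5 fell (median log2 change -0.37). Cacybp fell from 2059, 2049.5 and 2437 to 1124, 1353 and 1120.3 (log2 change -0.86 ± 0.19, adjusted p = 0.00331). Dnaja1, a partner of heat shock protein 70, fell from 1359, 1433 and 1483 to 634, 803 and 821 (log2 change -0.93 ± 0.28, adjusted p = 0.0281, 0.0513 to 0.112 without any 1 library but aged female 3). Hspa1b, an inducible heat shock protein 70, fell from 59.2, 66.8 and 48.6 to 0, 12.6 and 0 (log2 change -4.62 ± 1.23, adjusted p = 0.0147, 0.0752 without aged female 1 and 0.0663 without aged female 3). The count of the list was 2 or 3 without any 1 of the 6 libraries.

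The promoters of 3 of the chaperone genes that fell hold the stress element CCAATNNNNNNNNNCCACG, the site through which factors of the unfolded protein response act. Within the 250 bases before the start, on both strands, it was found for 0.154% of matched genes (15 of 9733) and for 8 of 28 matched members of the list. The list holds known genes of this response, so a high share in it says nothing of age. Of the 6 matched members called, 3 hold the element, and a match shows no binding. It is shown in 60-base stretches on the strand of the gene, in capitals, for Hspa5, Creld2 and Pdia6. In Creld2 it lies on the opposite strand.
Hspa5 (chr2:34772005-34772064, plus strand): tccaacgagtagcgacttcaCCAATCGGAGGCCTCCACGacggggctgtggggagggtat
Creld2 (chr15:88819500-88819559, plus strand): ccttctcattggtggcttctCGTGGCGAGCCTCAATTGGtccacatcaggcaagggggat
Pdia6 (chr12:17266471-17266530, plus strand): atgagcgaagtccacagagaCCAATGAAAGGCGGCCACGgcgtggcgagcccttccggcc

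Genes of cell division were few in reads, and 12 of them rose. Among 45 tested of 45 genes for proliferation, 12 rose and none fell, and their median log2 change was 1.29. Mcm2 is a subunit of the replicative helicase, Ccna2 is cyclin A and Plk1 a mitotic kinase. Mcm2 had 278, 211 and 249 in the young adult and 597, 699.5 and 517 in the aged females (log2 change 1.29 ± 0.28, adjusted p = 0.00353). Ccna2 had 25.7, 7.09 and 18.7 in the young adult and 109, 73.5 and 74.0 in the aged females (log2 change 2.39 ± 0.46, adjusted p = 0.00124). Plk1 had 0, 10.1 and 0 in the young adult and 62.0, 56.3 and 84.1 in the aged females (log2 change 4.92 ± 0.84, adjusted p = 4.20e-04). Mki67, the usual mark of cycling cells, did not pass, with 14.5, 0 and 0 and 9.44, 0 and 25.8 normalized counts, groups that overlapped. Its called members numbered 6 without young adult female 3 and 7 without young adult female 4 or aged female 3. In a fit of the 6 libraries alone the list counted 3. For cell cycle inhibitors and p53 targets, 25 of 28 listed genes could be tested, 2 rose and 3 fell (median log2 change -0.01). Sesn1 and Btg2, induced by p53, fell by 0.52 ± 0.11 and 0.47 ± 0.12 on the log2 scale. Cdkn1a, which encodes p21, did not pass (log2 change 0.37 ± 0.30, adjusted p = 0.477), and its aged libraries spread from 208 to 528 normalized counts. Cdkn2a did not pass the filter on low values. The number of its members called was 2 without aged female 1 and 3 without young adult female 3 or aged female 2. The list of glycolysis held 27 genes, of which 27 passed the filter on low values, 7 rose and none fell, with a median log2 change of 0.27. Slc2a6, a transporter of sugars in the lysosomal membrane, rose from 53.6, 77.0 and 3.74 to 476, 307 and 396 (log2 change 3.83 ± 0.65, adjusted p = 3.66e-04). Members called numbered 3 without young adult female 1 or 4 or aged female 1. Of 56 genes listed for nuclear-encoded oxidative phosphorylation, 56 were tested, 1 rose and 2 fell (median log2 change -0.13). The share of that last list called is below the background. The list counted 1 without young adult female 1 or aged female 3.

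Most genes that define homeostatic microglia did not pass, and those that did moved in both directions. Among 38 tested of 38 genes for homeostatic microglia, 2 rose and 7 fell, and their median log2 change was -0.14. P2ry12 is the receptor for released nucleotides that guides microglial processes (chromosome 3, 59216272 to 59262871 in mm10). P2ry12 had 278342, 276722 and 273501 normalized counts in the young adult and 179565, 202584 and 186808 in the aged females (log2 change -0.54 ± 0.10, adjusted p = 8.81e-04). Fcrls had 133071, 137029 and 141333 in the young adult and 86861, 93132 and 99618 in the aged females (log2 change -0.56 ± 0.09, adjusted p = 2.44e-04). Olfml3 had 117873, 113803 and 119744 in the young adult and 82852, 91323 and 90344 in the aged females (log2 change -0.41 ± 0.08, adjusted p = 9.28e-04). All aged libraries of the 3 lay below all young adult ones. Other genes by which microglia are recognised did not pass. These were Tmem119 (log2 change -0.04 ± 0.09, adjusted p = 0.804), Cx3cr1 (log2 change -0.06 ± 0.09, adjusted p = 0.728) and Sall1, a transcription factor found in microglia and not in other macrophages (log2 change -0.01 ± 0.11, adjusted p = 0.978). P2ry6, a receptor that triggers phagocytosis, rose (log2 change 0.36 ± 0.10, adjusted p = 0.0174, 0.0513 to 0.0841 without any 1 library but young adult female 4 and aged female 2 and 3), and so did Bhlhe41, a repressor of the clock (log2 change 0.64 ± 0.14, adjusted p = 0.00515). The count of the list was 5 without young adult female 1 or 4 or aged female 1 or 3. For TGF-beta and BMP signalling, 31 of 37 listed genes could be tested, 6 rose and 1 fell (median log2 change 0.17). Tgfbi, a matrix protein induced by TGF-beta, had 1832, 1728 and 1732 in the young adult and 3066, 2639.5 and 2748 in the aged females (log2 change 0.67 ± 0.10, adjusted p = 6.34e-05). Ski, a repressor of its signal, had 5450.3, 6791 and 5899 in the young adult and 10338, 10675 and 9705 in the aged females (log2 change 0.76 ± 0.12, adjusted p = 1.84e-04). Smad1, named after its value was seen, fell (log2 change -0.36 ± 0.10, adjusted p = 0.0207, 0.0536 to 0.102 without any 1 library but young adult female 1 and aged female 1). Its called members numbered 4 without young adult female 4.

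The list of endolysosomal Alzheimer risk genes held 26 genes, of which 24 passed the filter on low values, 6 rose and 2 fell, with a median log2 change of 0.09. Sorl1 is a sorting receptor, Ptk2b a kinase and Abi3 an actin regulator. Sorl1 rose from 279, 792 and 441 to 1542, 1813 and 1135 (log2 change 1.67 ± 0.26, adjusted p = 1.37e-04). Ptk2b rose from 3546, 3473 and 3035 to 4864, 4634 and 5115 (log2 change 0.54 ± 0.08, adjusted p = 6.34e-05). Abi3 fell from 11409, 11279 and 12405 to 8222, 8909 and 8875 (log2 change -0.43 ± 0.11, adjusted p = 0.0133, 0.066 without young adult female 4 and 0.0614 without aged female 1). Of 43 genes listed for macrophage transcription factors, 40 were tested, 5 rose and 2 fell (median log2 change 0.07). Bhlhe40, a relative of Bhlhe41, had 56.9, 7.09 and 0 in the young adult and 225, 172 and 486 in the aged females (log2 change 5.10 ± 1.07, adjusted p = 0.00277). The number of its members called was 4 without young adult female 4 or aged female 1. Among 20 tested of 22 genes for glucocorticoid-induced genes, 1 rose and 4 fell, and their median log2 change was 0.09. Sgk3, a kinase, fell from 2639.7, 2875 and 3223 to 1478, 1841 and 2048 (log2 change -0.71 ± 0.13, adjusted p = 7.83e-04). Members called numbered 2 or 3 without aged female 1 or 3 or young adult female 1, 3 or 4.

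Other large changes were in genes nearly silent in the young adult females. Rab7b, a small GTPase of late endosomes, had 1 read over the 3 young adult libraries and 185, 179 and 389 normalized counts in the aged (adjusted p = 3.02e-07). Ptger4, a receptor for prostaglandin E2, had no read in the young adult and 99.8, 134 and 221 in the aged females, at least 135-fold higher over the floor (adjusted p = 1.94e-05). Pla2g2d, a secreted phospholipase, had none and 70.1, 35.6 and 53.8, at least 47.3-fold higher (adjusted p = 0.0024). Ifi208 is a member of the interferon-induced family of Ifi204. It had no young adult read and 124, 118 and 40.4 in the aged, at least 83.7-fold higher (adjusted p = 0.0012). Dlg5, a scaffold of cell polarity, had 21.2, 1.01 and 0 in the young adult and 228, 136 and 179 in the aged females (log2 change 5.65 ± 0.76, adjusted p = 2.15e-05). Pdzrn4 had 16.7, 0 and 0 in the young adult and 294, 275 and 87.5 in the aged females (log2 change 6.21 ± 0.81, adjusted p = 1.63e-05). Rxrg, a retinoid X receptor, varied among the young adult libraries. It had 81.5, 28.4 and 0 in the young adult and 825, 399 and 629 in the aged females (log2 change 5.46 ± 0.92, adjusted p = 3.50e-04). Fn1, fibronectin, had none in the young adult and 208, 11.5 and 42.6 in the aged females, highest in aged female 1 (adjusted p = 0.00953, 0.0682 without aged female 1).

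Among genes that fell most, Gnat1, a G protein of photoreceptors that microglia are not known to express, had no read in the aged females. It had 118, 143 and 182 normalized counts in the young adult libraries, at least 122-fold lower in the aged (adjusted p = 3.17e-06). It moved with the sum of the photoreceptor and pinealocyte list given above. Gpr165 is an orphan receptor. Normalized counts of Gpr165 ran 4841, 5424 and 5105 in the young adult and 786, 1491 and 1116 in the aged females (log2 change -2.23 ± 0.26, adjusted p = 3.03e-06). Rgs7bp, an anchor of regulators of G protein signals, fell from 435, 441 and 484 to 109, 82.7 and 51.6 (log2 change -2.53 ± 0.29, adjusted p = 2.42e-06). No aged library of either gene reached the young adult range. Sema6d, a guidance cue, fell from 766, 1103 and 581 to 101, 203 and 349.9 (log2 change -2.02 ± 0.41, adjusted p = 0.00203). Klrd1, which encodes CD94, fell from 223, 207 and 241 to 48.5, 144 and 40.4 (log2 change -1.75 ± 0.39, adjusted p = 0.00435). Gspt2, a factor of translation termination, had 53.6, 69.9 and 27.4 and a single read in the aged group (adjusted p = 0.00104).

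Among genes with high normalized counts, those given next changed by small steps, while Apoe, given above, did not. Ctss, a cathepsin, rose from 272679, 268054 and 271733 to 378948, 354042 and 303516 (log2 change 0.35 ± 0.10, adjusted p = 0.029, 0.0688 to 0.144 without any 1 library but aged female 3). B2m, the light chain of MHC class I, rose from 55852, 54573 and 57513 to 93488, 81006 and 67601 (log2 change 0.52 ± 0.14, adjusted p = 0.0183, 0.0513 to 0.11 without any 1 library but young adult female 1 and 4 and aged female 3). Serinc3, of the membrane, fell from 273107, 266457 and 267485 to 216426, 224860.0 and 216689 (log2 change -0.29 ± 0.09, adjusted p = 0.0393, 0.0681 to 0.107 without any 1 of the 6 libraries). The groups overlapped for none of these 3, yet each call depended on single libraries. Sparc, a matrix protein, fell from 155856, 160759 and 160213 to 134793, 132182 and 133139 (log2 change -0.25 ± 0.07, adjusted p = 0.0267, 0.0556 to 0.0837 without any 1 of the 6 libraries). Cd53, a tetraspanin, fell from 64585, 62766 and 64155 to 51735, 50871 and 49104 (log2 change -0.34 ± 0.08, adjusted p = 0.00719).

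Levels in the 5 middle-aged females are given as a description, without a test. Tnfsf8 ran from 101 to 193 normalized counts (median 115), above the young adult libraries and with its highest inside the aged range. Lag3 ran from 2212 to 3055 (median 2445), and Cd22 from 1337 to 1871 (1416). Ly9 ran from 1448 to 2393 (1839) and Pdcd1 from 469.6 to 823 (587), between the 2 other ages. Apoe ran from 3679 to 13212 (median 8812) and Cd74 from 1048 to 1999 (1313). For both, the young adult libraries overlapped this range and the aged did not. Lilrb4a ran from 44.7 to 142 (87.3) and Gpnmb from 0 to 3.18 (0), below each aged library. P2ry12 ran from 200606 to 224810.0 (218440.0) and Gpr165 from 779 to 1373 (1201), both below each young adult library.

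**Figure D4:**
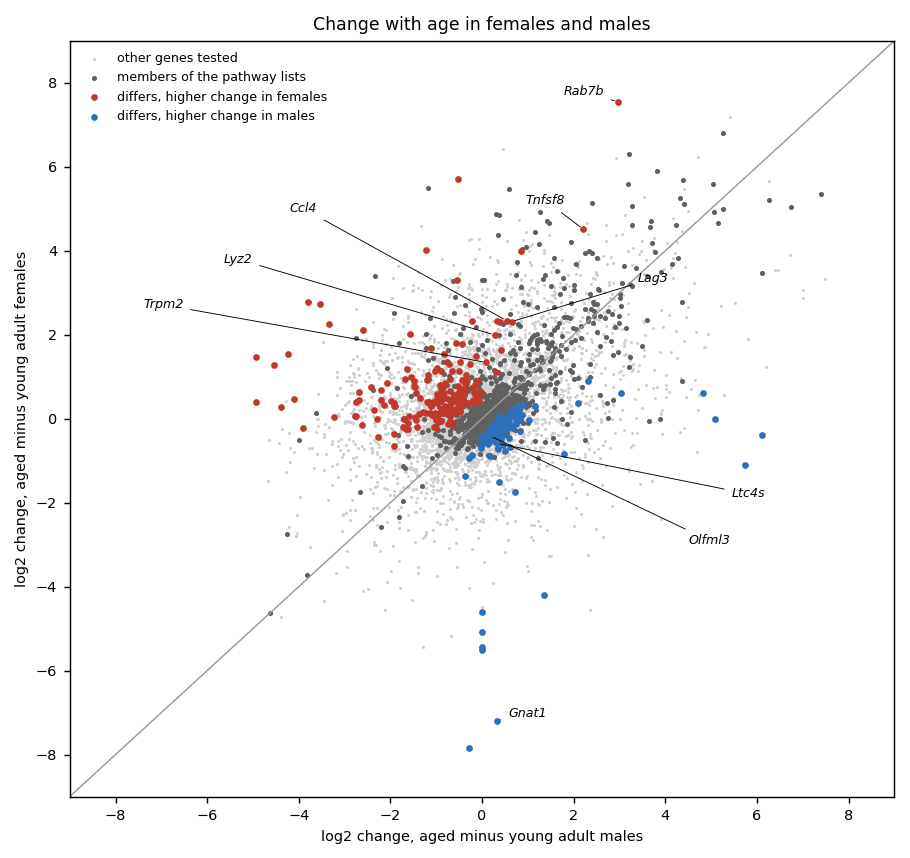
Log2 change from young adult to aged in females (vertical) against males (horizontal) for the 12552 genes tested, with members of the pathway lists in dark grey and the genes whose change differed between the sexes in colour. The grey line marks equal change. Lag3, Lyz2, Ccl4 and Trpm2 lie above it, and Olfml3 and Ltc4s below.

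Which of these changes differ from those in males was tested as the difference of the changes, for which females and males share no library. The change differed for 351 genes (2.80%), 186 in the direction of a larger rise or smaller fall in females and 165 in the other. When all libraries were scaled to 1 common total, these were 315 and 71, so the split depends on the scaling. The count was 228 without aged female 1, 209 without aged female 3, 196 without young adult female 4 and 131 without young adult male 2. In males 16.9% of genes changed. Along the component that held 15.4%, young adult males scored 46.1 to 64.6 and aged males -27 to -15. Young adult females scored -2.1 to 1.2 and aged females -54.2 to -38.1. Normalized counts totalled 21.4 to 21.9 M in young adult and 23.1 to 23.6 M in aged males. In young adult and aged females the totals were 23.7 to 24 M. Apart from the scaling, the part of these shifts in the differences was not tested.

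Lag3 had a log2 change of 2.31 ± 0.18 in females and 0.65 ± 0.18 in males, a difference of 1.67 ± 0.26 (adjusted p = 0.00154). The gene had 1804 ± 205 normalized counts in the young adult and 2812 ± 171 in the aged males (SD, n = 3 each). Lyz2 and Ccl4 also rose more in females. Lyz2 had a log2 change of 1.99 ± 0.19 in females and 0.28 ± 0.19 in males, a difference of 1.72 ± 0.27 (adjusted p = 0.00154). Ccl4 had a log2 change of 2.34 ± 0.25 in females and 0.53 ± 0.25 in males, a difference of 1.80 ± 0.36 (adjusted p = 0.00965). Lyz2 had 5846 ± 689 normalized counts in the young adult and 7176 ± 1701 in the aged males (SD, n = 3 each). Tnfsf8 rose in both sexes, by more in females. Tnfsf8 had a log2 change of 4.51 ± 0.31 in females and 2.21 ± 0.31 in males, a difference of 2.31 ± 0.44 (adjusted p = 0.00652). Trpm2 had a log2 change of 1.34 ± 0.16 in females and 0.09 ± 0.16 in males, a difference of 1.25 ± 0.23 (adjusted p = 0.00444). Dhx58 and the clock gene Per3 showed the same order. Per3 had a log2 change of 1.49 ± 0.24 in females and -0.13 ± 0.24 in males, a difference of 1.62 ± 0.35 (adjusted p = 0.0127, 0.0522 without young adult male 2). Dhx58 had a log2 change of 1.64 ± 0.20 in females and 0.41 ± 0.20 in males, a difference of 1.23 ± 0.28 (adjusted p = 0.0179, 0.0554 without young adult female 4). Of the clock list the difference passed for 3 of 21 members, and of the disease-associated list for 4 of 38. Of the homeostatic list it passed for 9 of 38, in both directions. The change was higher in males for Olfml3 and Tmem119, and higher in females for Bhlhe41. The difference of Bhlhe41 was 0.77 log2 units (adjusted p = 0.0421, 0.123 without young adult male 2). Olfml3 had a log2 change of -0.41 ± 0.08 in females and 0.18 ± 0.08 in males, a difference of -0.59 ± 0.11 (adjusted p = 0.00486). Tmem119 had a log2 change of -0.04 ± 0.09 in females and 0.40 ± 0.09 in males, a difference of -0.44 ± 0.12 (adjusted p = 0.0468, 0.053 to 0.123 without any 1 library but aged female 3 and aged male 1). Olfml3 had 88413 ± 5516 normalized counts in the young adult and 99863 ± 4036 in the aged males (SD, n = 3 each). For Cd22, Pdcd1 and Cd74 the difference did not pass. Its estimates were 0.12 ± 0.27 (adjusted p = 0.854), 0.16 ± 0.40 (adjusted p = 0.87) and -0.14 ± 0.30 (adjusted p = 0.854) log2 units.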

How the data were processed

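The authors deposited signal, with 1 column per library. In each column the values are whole multiples of 1 step, as read counts divided by 1 size factor would be, and dividing by the step recovered whole reads for 100% of values within 0.01 reads. The tools listed, with no role, are STAR 2.5.2, Trim Galore 0.4.3 and DESeq2 1.32.0 with build mm10, per the submitters' processing notes. For the counting tool and the annotation, no name was given in the sources used here.

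Genes with at least 10 in at least 3 of 22 libraries were fitted by limma 3.58.1 (R 4.3.3, trended variance, pseudocount 1) with 1 mean for each of 6 groups of sex and age. The contrasts were aged minus young adult in females, in males, and their difference. On recovered reads edgeR 4.0.16 (quasi-likelihood) called 1368 genes and DESeq2 1.42.0 called 1820. Other alternatives were pseudocounts of 0.25 and 8, no filter, other scalings, thinning to 17.7 M reads, a length and GC trend, fewer groups, a replicate block and leaving out libraries.

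Named genes are up to 15 each way with the largest change and 10 with the highest level among called genes without overlap, up to 6 of each list by adjusted p, called members where a list has 3 or fewer, microglial and ageing genes of interest, and up to 8 each way for the difference between the sexes. A few genes that this allows are not reported here. Further genes are marked as named after their values were seen. Members and lists were chosen with earlier results of these data known. Base letters come from RefSeq. Python 3.11.15 and matplotlib 3.10.9 drew the plots.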

Additional observations from a re-analysis of the deposited data

Results flagged for a closer look

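One value was flagged as far from the others of its group, though it amounts to only a few reads. Gpnmb had 3.18 normalized counts in 1 middle-aged female and fewer or none in the other 4. Chance marks about 1 in 20 groups in this way.

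The change with age differed between females and males for further genes named in the report or allowed by its rule. Values are the female change minus the male change in log2 units. Among immune genes the change was higher in females for Ccl3, 1.90 ± 0.39 (adjusted p = 0.0108), for Gbp7, 1.00 ± 0.22 (adjusted p = 0.0176, 0.0565 without young adult male 2), and for Adgre4, an adhesion receptor of macrophages, 3.34 ± 0.92 (adjusted p = 0.049, 0.0551 to 0.13 without young adult female 1 or 4, aged female 2 or 3, young adult male 2 or 3 or aged male 1 or 2). It was lower in females for Klrd1, -2.47 ± 0.55 (adjusted p = 0.0158), and for Cd44, a receptor for hyaluronan, -4.21 ± 1.09 (adjusted p = 0.0367, 0.0505 to 0.117 without young adult female 1 or 3, aged female 1 or 2, young adult male 2 or 4 or aged male 1 or 4). Of the clock list it was higher in females for Tef, 0.81 ± 0.21 (adjusted p = 0.0392, 0.0591 to 0.0965 without young adult female 1 or 3, aged female 1 or 3, young adult male 2 or 4 or aged male 2 or 4), and for Bhlhe41, 0.77 ± 0.20 (adjusted p = 0.0421, 0.0655 to 0.123 without young adult female 3 or 4, aged female 2 or 3, young adult male 2 or 4 or aged male 1). Among genes that fell in females it was lower there for Abi3, -0.68 ± 0.16 (adjusted p = 0.0226, 0.0554 to 0.0767 without young adult female 4, aged female 1 or young adult male 2 or 3), for Arsb, -0.66 ± 0.16 (adjusted p = 0.0278, 0.0511 to 0.063 without young adult female 3 or 4, aged female 1 or 3, young adult male 3 or aged male 4), for Cd53, -0.46 ± 0.11 (adjusted p = 0.0293, 0.0516 to 0.0708 without young adult female 1 or 4, aged female 2 or 3, young adult male 2 or 3 or aged male 2), and for Gpr183, -0.45 ± 0.12 (adjusted p = 0.0438, 0.0711 to 0.105 without young adult female 1 or 4, aged female 2 or 3, young adult male 2 or 3 or aged male 2 or 4). Values given in the report were 1.67 for Lag3, 1.72 for Lyz2, 1.80 for Ccl4, 2.31 for Tnfsf8, 1.25 for Trpm2, 1.62 for Per3 and 1.23 for Dhx58. They were -0.59 for Olfml3 and -0.44 for Tmem119.

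Further differences of this kind were those of Pcnx2, 5.32 ± 1.36 (adjusted p = 0.0342, 0.0568 to 0.0816 without young adult female 1 or 4, aged female 1 or 2, young adult male 2 or 3 or aged male 1 or 2), the DNA methyltransferase Dnmt3b, 3.69 ± 0.93 (adjusted p = 0.0324, 0.0605 to 0.0804 without young adult female 3, aged female 1 or 2, young adult male 2 or 3 or aged male 2), and the histone gene Hist1h2bg, 3.28 ± 0.76 (adjusted p = 0.0195, 0.0535 without aged female 2 and 0.0606 without young adult male 2). In the other direction they were those of Trim16, -2.62 ± 0.70 (adjusted p = 0.0424, 0.0558 to 0.107 without any 1 library but young adult male 4 and aged male 2), and Olfm4, -2.41 ± 0.64 (adjusted p = 0.0411, 0.0504 to 0.126 without any 1 library but young adult female 3 and young adult male 4). For genes with at most 3 reads in 1 of the 4 groups no fold is given. The adjusted p of the difference (limma) was 0.00154 for Gnat1 and 0.01 for Hist1h2ac. Rab7b gave 0.0194, 0.0565 without aged female 3 and 0.0685 without young adult male 2. Glb1l2 gave 0.0369, 0.0542 to 0.0815 without any 1 library but aged female 3 and young adult male 4. Stag3 gave 0.0424, 0.0568 to 0.12 without young adult female 1 or 4, aged female 1 or 3, young adult male 2 or 3 or aged male 1. Spag5 gave 0.0424, 0.055 to 0.104 without any 1 library but young adult female 3 and aged female 3. Pla2g2d gave 0.0442, 0.0616 to 0.111 without any 1 library but young adult male 2 and 4 and aged male 1. Gnat1 fell with the photoreceptor and pinealocyte transcripts of the young adult females.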

How the results depend on the processing

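Results in females were recomputed under 18 alternatives and differences between the sexes under 24, which add leaving out each young adult and aged male library. Of the 180 called genes followed by name in females, 121 kept their direction and passed the threshold under each of the 18. The others include 28 lost without aged female 1, 27 without young adult female 4, 36 in a fit of the 6 libraries alone and 16 with the length and GC trend removed. The 16 genes lost with the trend removed are Ccl9, Cd53, Chac1, Cklf, Clec4a2, Gaa, Gpr183, Hspa5, Ifngr1, Il13ra1, Ireb2, Itgb5, Ly96, P2ry6, Pdia6 and Serinc3, 12 of which fell with age. In that setting the glycolysis list counted 4, the antioxidant response 4, cholesterol synthesis 2, glucocorticoid-induced genes 2, purine signalling 2 and oxidative phosphorylation 1. In a fit of the 6 libraries alone the chemokines counted 4, the antiviral effectors 17, MHC class II presentation 3, glycolysis 3, iron handling 6, cell cycle inhibitors 3, the interferon-inducible GTPases 2, cholesterol synthesis 2, inflammasome and cell death 2, and lipid droplets 0. The cause of these changes was not tested. The values that changed sign belong to genes that did not pass in females. Cx3cr1 ran from -0.099 to 0.0057 when 1 library was left out and was 0.0057 when middle-aged female 2, aged female 1 and aged male 1 were all left out. Tmem119 ran from -0.12 to 0.013 and was 0.013 there. Sall1 ran from -0.044 to 0.028 and was 0.028 there, 0.0032 with the same total in each library and 0.016 with a replicate block. The 1525 genes called in females became 902 in a fit of the 6 libraries alone and 956 to 1234 when 1 library was left out. edgeR on the recovered reads called 1368 and DESeq2 1820. The 351 differences between the sexes became 129 with only the 4 groups compared, 209 when those same 3 libraries were left out, 714 with DESeq2, and 131 to 424 when 1 library was left out. Differences between the sexes that did not pass also crossed 0 when 1 library was left out, from -0.031 to 0.26 for Cd22, from -0.26 to 0.074 for Cd74 and from -0.11 to 0.35 for Pdcd1. That of Cd22 was -0.0418 with the same 3 left out.

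Samples share only numbers. Correlations of their deviations from the group means were -0.0053 and 0.034 for equal numbers and -0.0091 and -0.043 for unequal ones. So few values from groups of 3 libraries cannot show whether equal numbers mark pairs. With the replicate number as a block, 1443 genes were called in females and 200 differences between the sexes. Depth limits genes with few reads: 654 of those tested had at most 3 reads in 1 of the 2 female groups, and their fold depends on the pseudocount. With such genes at their bound, 9 list medians differed when given to 2 decimals, some of them by far more. The median of the disease-associated list went from 1.74 to 1.97 and that of the neutrophil list from 3.27 to 6.72. That of the mural cell list went from 0.21 to -0.18.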

Other observations

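Further lists had 2 to 4 members called. Over all genes tested 7.26% rose, 4.89% fell and 12.1% were called, and of these lists the Fc receptors (3 of 8) and purine signalling (4 of 19) stood above that share. For Fc receptors, 8 of 11 listed genes could be tested, 2 rose and 1 fell (median log2 change 0.11). Fcgr2b, the inhibitory receptor for IgG, rose from 10991, 10359 and 11243 to 15299, 16509 and 13322 (log2 change 0.46 ± 0.09, adjusted p = 9.71e-04). Fcgr4 rose from 922, 735 and 577 to 1681, 1595 and 1121 (log2 change 0.98 ± 0.30, adjusted p = 0.0315, 0.072 to 0.144 without any 1 library but young adult female 1 and aged female 3). The list of antioxidant response held 27 genes, of which 27 passed the filter on low values, 2 rose and none fell, with a median log2 change of 0.13. Gpx3, a secreted glutathione peroxidase, rose from 2.23, 1.01 and 1.25 to 32.4, 58.6 and 63.9 (log2 change 4.37 ± 1.01, adjusted p = 0.00571). Of 22 genes listed for purine signalling, 19 were tested, 2 rose and 2 fell (median log2 change 0.04). P2rx4, a channel opened by ATP, rose from 2612, 2514 and 2791 to 3446, 3617 and 3941 (log2 change 0.47 ± 0.10, adjusted p = 0.00302). Gpr183, a receptor for oxysterols that 25-hydroxycholesterol gives rise to, fell from 11701, 11145 and 12267 to 10056, 9061 and 9379 (log2 change -0.30 ± 0.09, adjusted p = 0.021, 0.0568 to 0.0952 without any 1 library but young adult female 3 and aged female 1). The list counted 2 without young adult female 1. Among 30 tested of 33 genes for inflammasome and cell death, 3 rose and 1 fell, and their median log2 change was 0.10. Casp8, which starts cell death, fell from 8299.9, 8559 and 9359 to 6091, 7154 and 7246 (log2 change -0.36 ± 0.09, adjusted p = 0.0108, 0.0657 without young adult female 4 and 0.0807 without aged female 1). Casp4, which senses bacterial lipopolysaccharide, rose from 178, 244 and 216 to 383, 292 and 338 (log2 change 0.67 ± 0.21, adjusted p = 0.0393, 0.0842 to 0.154 without any 1 library but young adult female 3 and aged female 2). Bcl2a1a, an inhibitor of cell death with near copies, rose from 224, 171 and 241 to 360.0, 363 and 379 (log2 change 0.80 ± 0.25, adjusted p = 0.0324, 0.0574 to 0.133 without any 1 library but young adult female 4). The count of the list was 1 without aged female 1 and 2 without young adult female 4.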
